A study of Homo sapiens with 3 samples.

Results

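Peaks of Spindlin1 and C11orf84 were examined around 3 genes, MAZ, GDNF and RET, in U2OS, an established human osteosarcoma cell line. All peaks that reach within 50 kb of the gene interval in hg19 were taken: MAZ on chromosome 16 (29817000 to 29823000), GDNF on chromosome 5 (37812000 to 37840000) and RET on chromosome 10 (43572000 to 43626000). These interval limits are rounded and were given with the choice of genes, so distances from a gene start are distances from the end of its interval. This gave 121 of 153468 Spindlin1 peaks and 123 of 177639 C11orf84 peaks, 244 of 331107 in all. The chromatin immunoprecipitation (ChIP-seq) used untreated cells fixed in 1% formaldehyde for 10 min, with an antibody to Spindlin1 in 1 library and to C11orf84 in another, beside an Input library without antibody, of which no file was used here. A single library per antibody allows neither a replicate check nor a test between them. Intervals below are exact Clopper-Pearson 95% intervals for counting error only, and they take neighbouring peaks as independent, which they are not. Total read numbers are unknown.

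Spindlin1 recognises methylated histone H3 tails through its Tudor-like domains, and C11orf84 is one of its binding partners. MAZ is a zinc finger transcription factor that binds G-rich DNA. GDNF is a secreted growth factor that acts through a GPI-anchored co-receptor on RET, a receptor tyrosine kinase needed for development of the enteric nervous system and kidney. In liposarcoma, Spindlin1 has been reported to act with MAZ on expression of GDNF and so on signalling through RET, and the question put to the U2OS peaks was whether both proteins have peaks at these genes, how deep they are and how many they share.

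The promoters of the genes are shown for orientation, since MAZ binds G-rich DNA and GDNF is its reported target. Shown are the 250 bases before the outermost RefSeq start of each gene, in GRCh38.p14, 5′ to 3′ on the gene's strand, and capitals mark the G-rich heptamer GGGAGGG, known as a core of MAZ sites, or its reverse complement CCCTCCC. Their coordinates belong to GRCh38.p14 and cannot be set against the hg19 peak positions below. MAZ (chr16:29806279-29806528, plus strand), GDNF (chr5:37840042-37840291, minus strand) and RET (chr10:43076819-43077068, plus strand) read:
MAZ: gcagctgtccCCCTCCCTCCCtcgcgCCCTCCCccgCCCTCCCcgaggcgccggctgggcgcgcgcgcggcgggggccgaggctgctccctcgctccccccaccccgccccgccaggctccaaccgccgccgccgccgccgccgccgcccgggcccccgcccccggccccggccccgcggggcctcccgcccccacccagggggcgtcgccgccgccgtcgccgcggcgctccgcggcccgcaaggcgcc
GDNF: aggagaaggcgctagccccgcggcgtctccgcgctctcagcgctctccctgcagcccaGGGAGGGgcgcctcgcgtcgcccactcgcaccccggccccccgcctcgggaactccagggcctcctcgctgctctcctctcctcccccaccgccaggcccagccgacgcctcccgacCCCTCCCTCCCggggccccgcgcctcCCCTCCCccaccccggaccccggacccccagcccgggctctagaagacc
RET: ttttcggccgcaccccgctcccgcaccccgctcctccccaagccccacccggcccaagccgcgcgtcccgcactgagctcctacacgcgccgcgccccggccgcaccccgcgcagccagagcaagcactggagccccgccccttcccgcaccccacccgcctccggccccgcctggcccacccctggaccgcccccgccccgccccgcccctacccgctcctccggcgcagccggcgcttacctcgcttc
The MAZ promoter held 4 matches, all as CCCTCCC, and the GDNF promoter held 4, of which 1 was GGGAGGG and 3 were CCCTCCC, with overlapping matches counted singly. The RET promoter held 0. Among 35116 promoter sequences of the same length, 24.7% held at least 1 match on either strand and 0.740% held at least 4. All 3 sequences were rich in G and C (88.8% for MAZ, 78.0% for GDNF and 79.6% for RET, against a median of 58.0%). RefSeq lists 1 start for MAZ, 4 for GDNF, spread over 5.22 kb, and 2 for RET, 27.7 kb apart. None of the inner starts of GDNF and RET had a match in the 250 bases before it.

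Both proteins had peaks at all 3 loci, and the loci differed in how many. RET had 97 Spindlin1 and 94 C11orf84 peaks in 154 kb, GDNF had 12 and 13 in 128 kb, and MAZ had 12 and 16 in 106 kb. Windows of equal length were laid end to end over chromosomes 1 to 22 and X, and those with a peak of either list were counted. At least as many Spindlin1 summits as at RET were found in 1.19% of 14576 such windows, and at least as many C11orf84 summits in 1.66%. For GDNF the shares of 16737 windows were 20.4% and 22.2%, and for MAZ 18.3% and 16.9% of 19266. The median window of these lengths held 3 Spindlin1 summits and 3 (4 at the RET length) C11orf84 summits. Counts at MAZ and GDNF were thus reached by many windows, and those at RET by few.

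**Figure D1:**
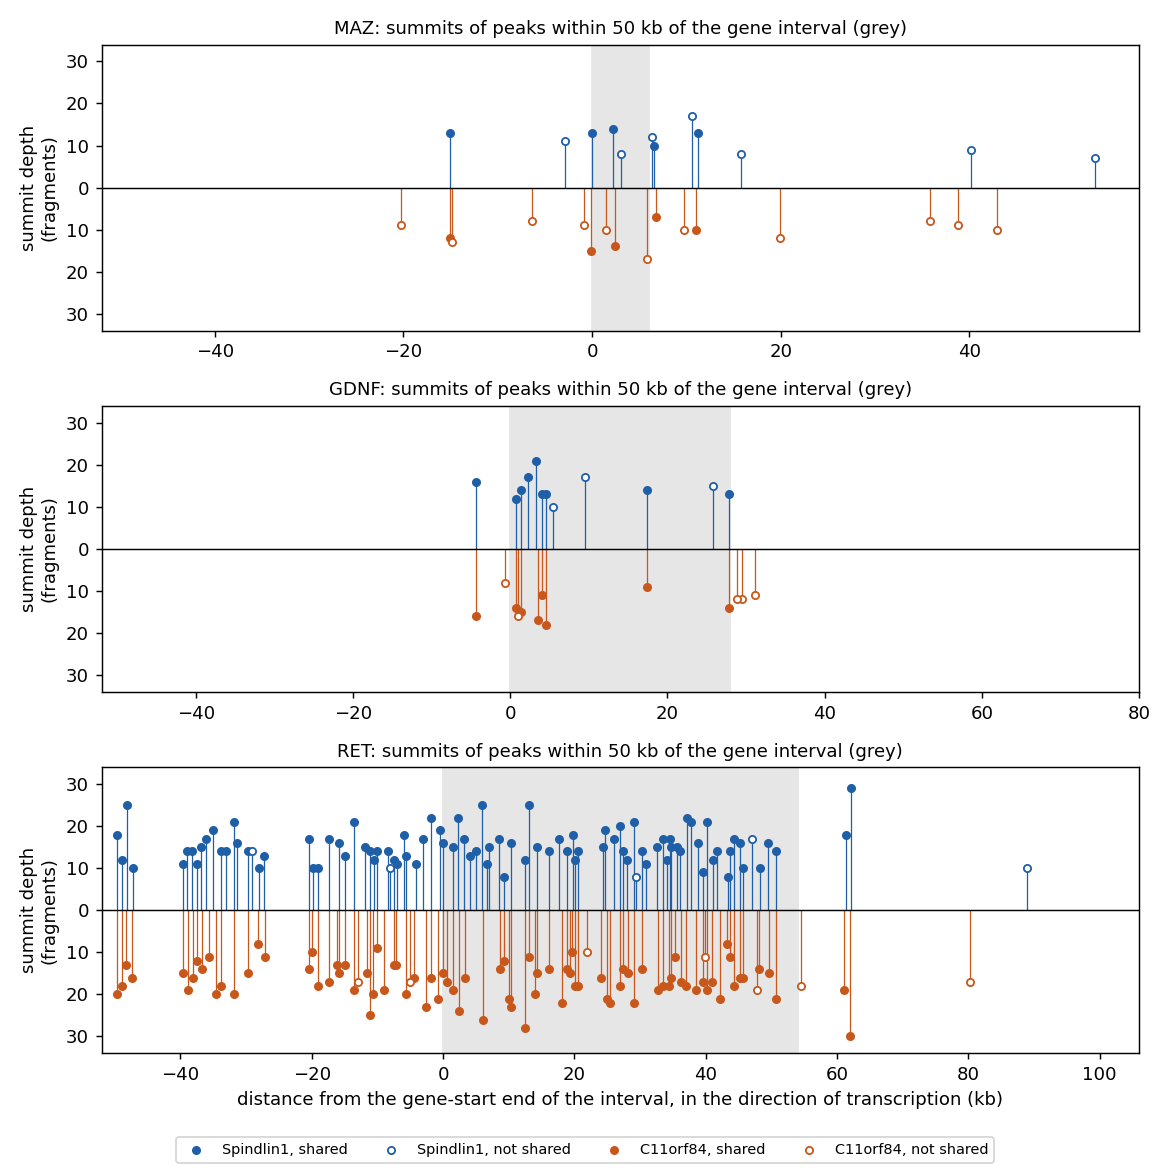
Summit depth in fragments (vertical axis, Spindlin1 upward and C11orf84 downward) against distance from the gene-start end of each interval in kb, in the direction of transcription; grey marks the gene interval, filled points are peaks that overlap the other list and open points are not. At GDNF 7 of 12 and 6 of 13 summits lie in the first 6 kb of the gene, a limit chosen after the values were seen. At RET all but 3 of 97 and 4 of 94 peaks lie in the upstream flank or the gene interval. At MAZ 3 of 12 and 4 of 16 peaks lie in the short gene interval and the others in both flanks.

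A peak is called shared when it overlaps a peak of the other list by 1 bp or more. Over chromosomes 1 to 22 and X this held for 69.7% of Spindlin1 and 57.6% of C11orf84 peaks. At RET, 92 of 97 Spindlin1 peaks (94.8%, 88.4 to 98.3) and 87 of 94 C11orf84 peaks (92.6%, 85.3 to 97.0) were shared. At GDNF these were 9 of 12 (75%, 42.8 to 94.5) and 8 of 13 (61.5%, 31.6 to 86.1). At MAZ they were 5 of 12 (41.7%, 15.2 to 72.3) and 5 of 16 (31.2%, 11.02 to 58.7). At RET the intervals lay clear of the shares of the whole lists, and those at GDNF and MAZ included them. The intervals at GDNF and MAZ rest on 12 to 16 peaks and are wide. Neighbouring peaks are not independent, so this is no test of a locus against the list. Shared peaks were commoner among deep ones in the whole lists: 78.6% of Spindlin1 peaks of 14 fragments, the median at RET, and 76.0% of C11orf84 peaks of 17 fragments, the median there, were shared. C11orf84 peaks covered 53.8% of the RET interval and 44.0% of its upstream flank, and how far such coverage alone raises the shared count was not tested.

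**Figure D2:**
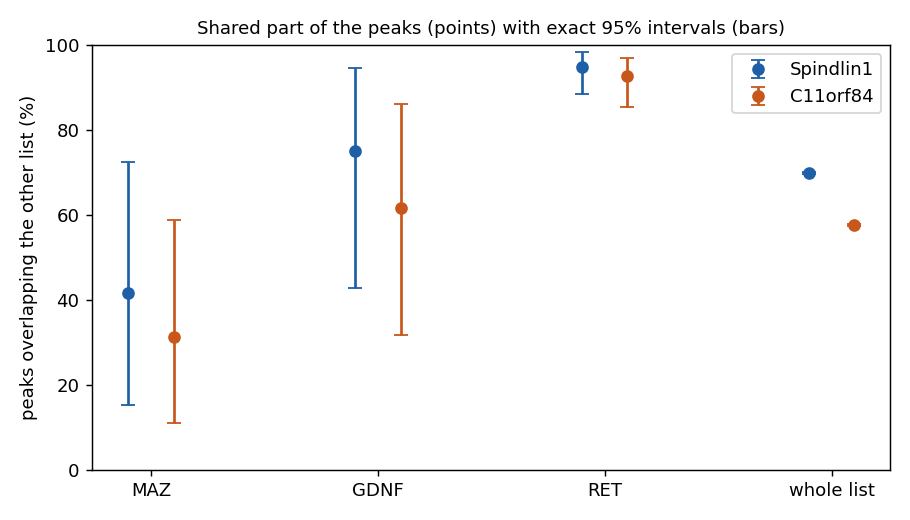
Percent of peaks overlapping the other list (vertical axis) at each locus and over chromosomes 1 to 22 and X (whole list), with exact 95% intervals as bars. RET stands at 94.8% and 92.6%, and the wide bars of GDNF and MAZ span the values of the whole lists, 69.7% and 57.6%. Bars give counting error only and take peaks as independent, which neighbouring peaks are not.

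With at least 50% of both intervals in common, 73 of the 97 Spindlin1 and 73 of the 94 C11orf84 peaks at RET were shared, against 47.5% and 41.1% over the lists. The same rule left 6 and 6 at GDNF, and 3 and 3 at MAZ. With summits at most 200 bp apart the numbers were 65 and 65 at RET, 7 and 7 at GDNF and 4 and 4 at MAZ, against 55.1% and 47.5% over the lists. RET was therefore above the list-wide share by each of these rules.

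MAZ, the gene of the transcription factor itself, had a peak of both proteins at the start end of its interval, a rounded limit. Summit depth is the number of fragments over the highest point of a peak, recovered from the authors' fold enrichment and p-value, and its median over the whole lists was 11 fragments for Spindlin1 and 12 for C11orf84. A Spindlin1 peak (29816884 to 29817123, chromosome 16) lay across the start end of the MAZ interval with 13 fragments and a fold of 6.08. The C11orf84 peak there (29816637 to 29817119) had 15 fragments and a fold of 6.60, and the summits were 33 bp apart. Each fold is the summit over that peak's own local background, and folds are ranked only within their own list. A second shared pair lay 2.12 and 2.02 kb inside the gene interval, at 14 fragments in both libraries (Spindlin1 29819121 to 29819562, C11orf84 29819025 to 29819567), with summits 209 bp apart. Between these pairs C11orf84 had a peak of its own (29818181 to 29818668, 10 fragments), 452 bp from the nearest Spindlin1 peak. The start end of the MAZ interval thus had peaks of both proteins, at 2 and 3 fragments above the list medians.

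Over the MAZ locus, Spindlin1 depth ranged from 7 to 17 fragments (median 11.5) and C11orf84 depth from 7 to 17 (median 10). The 3 highest Spindlin1 folds were 6.33 (29801696 to 29802011), 6.16 (29814051 to 29814222) and the 6.08 at the start end. For C11orf84 they were 6.75 at the pair inside the gene, 6.60 at the start end and 6.30 (29802096 to 29802417). The leading Spindlin1 peak ranked 50438 in its list and the leading C11orf84 peak 47178, which is 32.9% and 26.6% of the way down. Of the 12 and 16 MAZ peaks, 0 and 0 had a −log10 q of 10 or higher, against 11.8% of Spindlin1 and 15.7% of C11orf84 peaks over the lists. Of the MAZ peaks, 2 Spindlin1 and 5 C11orf84 peaks lay in the upstream flank, 3 and 4 in the gene interval and 7 and 7 in the downstream flank. The interval is 6001 bp long and each flank 50 kb. Per 10 kb there were 5.00 and 6.67 peaks in the interval, 0.4 and 1 upstream and 1.4 and 1.4 downstream. MAZ peaks were thus densest in the gene interval, though on few peaks. KIF22 lies before MAZ in RefSeq's gene order, and PRRT2, PAGR1 and MVP follow it, with the long non-coding RNA gene MVP-DT overlapping, and to which gene the flank peaks belong was not tested.

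At GDNF, which encodes the RET ligand, part of the peaks lay in the first 6 kb of the gene, a limit chosen after their positions and values were seen. Spindlin1 had 7 of its 12 summits there and C11orf84 6 of its 13 (chromosome 5, 37834493 to 37839660 and 37834838 to 37839645), and 6 and 5 of these were shared. They covered 48.2% and 61.4% of the 6 kb. The bases common to both lists numbered 2446, which is 84.5% of the Spindlin1 and 66.3% of the C11orf84 bases. No Spindlin1 peak was called in the downstream flank and 1 in the upstream flank, while C11orf84 had 3 and 2.

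Within that stretch, the Spindlin1 peak of highest fold at the locus (37836351 to 37836923) had 21 fragments and a fold of 10.1, which ranked 1826 in its list, in the top 1.19%. The next (37837146 to 37837807) had 17 fragments and a fold of 8.61, and the third (37838287 to 37838809) 14 fragments and 7.51. A single C11orf84 peak of 1739 bp (37836344 to 37838082, 17 fragments, fold 8.22) spanned the first and second of these. The third was matched by a C11orf84 peak (37838327 to 37838801) of 15 fragments and fold 7.66, with summits 36 bp apart. The highest C11orf84 fold, 8.75 at 18 fragments, belonged to a peak farther into the gene (37834838 to 37835576), over which the Spindlin1 peak had 13 fragments. The deepest GDNF summits of the 2 lists were thus 1.35 kb apart. For C11orf84 this rests on 18 against 17 fragments in 1 library, too close to order these peaks. For Spindlin1 it rests on 21 against 17 fragments, also in 1 library, and that order was not tested.

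Nearest to the start end of the GDNF interval, 340 and 355 bp inside it, a Spindlin1 peak (37839261 to 37839660, 12 fragments, fold 6.24) and a C11orf84 peak (37839272 to 37839645, 14 fragments, fold 7.08) had summits 7 bp apart. Beside it C11orf84 alone had a peak (37838999 to 37839178) of 16 fragments and fold 7.98, 82 bp from the nearest Spindlin1 peak. The −log10 q reached 10 in 2 Spindlin1 (16.7%) and 4 C11orf84 peaks (30.8%) at GDNF, against 11.8% and 15.7% over the lists. All of these GDNF peaks lay in the 6 kb stretch. Of these, 2 of 2 and 1 of 4 overlapped a peak of the other list that also reached it, where the lists gave 49.0% and 30.9%.

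The remaining GDNF peaks had lower median folds and a higher median local background, with overlapping ranges. The 6 kb limit was chosen after positions and values were seen, so this contrast is partly set by that choice. The highest fold outside the 6 kb was 6.86 for Spindlin1 and 5.73 for C11orf84, above the lowest inside, 5.22 and 4.45. Fold is taken over that background, so the 2 measures are not independent. Outside the 6 kb, 5 Spindlin1 peaks had a median of 15 fragments but a median fold of 5.60, against 13 fragments and 6.82 inside. For C11orf84, 7 peaks had 12 fragments and 4.75, against 15.5 and 7.82. Background is given relative to the floor, the lowest background of each list, and its median was 1.71 times the floor outside against 1.15 inside for Spindlin1, and 1.48 against 1.11 for C11orf84. Over the whole locus the median was 1.35 and 1.43 times, and 0 of 12 and 0 of 13 peaks stood at the floor, where 48.1% and 49.3% of all peaks did. Background reached 2 times the floor at 1 peak of each list at GDNF, against 9.07% and 9.19% over the lists, and it was the same place: a shared pair upstream of the gene (Spindlin1 37844197 to 37844408, C11orf84 37844259 to 37844454) with 16 fragments in both. Fold at that pair was 4.59 and 4.44. The antisense gene GDNF-AS1 overlaps GDNF in RefSeq, and ChIP peaks carry no strand.

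RET, the receptor gene, carried many peaks of both proteins, and 59.1% of its interval lay under a peak of either list. The RET interval held 54 Spindlin1 and 52 C11orf84 peaks, 10.0 and 9.63 per 10 kb, and the 50 kb upstream of it held 40 and 38. The downstream flank held 3 and 4. Spindlin1 peaks covered 51.3% of the interval and 39.4% of the upstream flank, and 2.92% of the downstream flank. C11orf84 peaks covered 53.8%, 44.0% and 3.13%. Of the Spindlin1 bases at the locus 89.8% lay under a C11orf84 peak, and of the C11orf84 bases 83.5% lay under a Spindlin1 peak. The median gap between neighbouring peaks was 306.5 bp for Spindlin1 and 256 bp for C11orf84.

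RET peaks were deeper and wider than those of the lists. Spindlin1 depth ranged from 8 to 29 fragments with a median of 14, against 11 over the list, and C11orf84 depth from 8 to 30 with a median of 17, against 12. Median widths were 453 and 431.5 bp, against 229 and 248 bp. The −log10 q was 10 or higher in 36 Spindlin1 (37.1%) and 53 C11orf84 peaks (56.4%), again against 11.8% and 15.7% over the lists. Of these, 29 (80.6%) and 26 (49.1%) overlapped a peak of the other list that also reached it, against 49.0% and 30.9% over the lists. Background had a median of 1.14 and 1.09 times the floor, against 1.05 and 1.01 over the lists. At the floor stood 35 of the 97 and 27 of the 94 peaks, where 48.1% and 49.3% of all peaks did. At 2 times the floor or more were 8 and 7 peaks (8.25% and 7.45%), close to the shares of the lists.

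The highest folds at RET lay inside the gene, in its first 15 kb, or upstream. The Spindlin1 maximum was a fold of 13.3 at 25 fragments (chromosome 10, 43577340 to 43578215), which ranked 51 in its list. It lay within the widest C11orf84 peak of the locus (43575930 to 43579210, 3281 bp, 26 fragments, fold 12.7), which overlapped 5 Spindlin1 peaks, and the summits were 160 bp apart. Spindlin1 also had a fold of 12.8 at 25 fragments 13.0 kb into the gene (43585003 to 43586055) and of 12.3 at 25 fragments 48.1 kb upstream (43523645 to 43523893). At the nearest overlapping summits C11orf84 had 11 and 13 fragments, and a second C11orf84 peak under the first of these (43585324 to 43586087) had 20. The C11orf84 maximum was a fold of 14.2 at 28 fragments (43584280 to 43584803), which ranked 42, and the Spindlin1 peak there had 12 fragments. The second C11orf84 peak, 11 kb upstream (43560567 to 43561004), had 25 fragments and a fold of 12.8, with 14 fragments for Spindlin1. The widest C11orf84 peak, described above, came next. Of the 3 leading peaks of each list, the Spindlin1 maximum and the widest C11orf84 peak formed a pair that was deep in both libraries.

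The start end of the RET interval was itself covered. A Spindlin1 peak (43571705 to 43572151) with 16 fragments and a fold of 8.72 met a C11orf84 peak (43571728 to 43572348) with 15 fragments and 5.93, where the local background of C11orf84 was 1.64 times the floor and that of Spindlin1 stood at it. Next to it a Spindlin1 peak of 1172 bp (43572534 to 43573705, 15 fragments, fold 5.05, background 2.28 times the floor) overlapped 2 C11orf84 peaks (43572479 to 43572776, 17 fragments, and 43572857 to 43573624, 19 fragments). Farther in, 1.81 kb from that end, Spindlin1 had 22 fragments (43573808 to 43574788, fold 11.04) and C11orf84 24 (43573818 to 43574765, fold 12.3). Depth at the start end was thus within the range of the locus, and the deepest summits lay elsewhere.

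Peaks of 1 list alone were few at RET and mostly lay beside a peak of the other. The 5 unshared Spindlin1 peaks had 8 to 17 fragments and the 7 unshared C11orf84 peaks 10 to 19. Median distances to the nearest peak of the other list were 113 and 305 bp. The closest pair of such peaks lay in the last part of the gene, Spindlin1 at 43618954 to 43619656 (17 fragments) and C11orf84 at 43619695 to 43619914 (19 fragments), separated by 38 bp. The exceptions with the largest gap, 8558 bp, were 1 peak of each list in the downstream flank. Where a peak is missing, it was not called at this depth, and the protein may still be present.

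Dense peaks were not limited to RET. From 100 to 70 kb upstream of its start end, Spindlin1 had 25 and C11orf84 27 summits (8.33 and 9 per 10 kb), and from 70 to 50 kb upstream 6 and 7. The first 50 kb of the interval held 53 and 50. The next 60 kb, from 50 to 110 kb past the start end, held 5 and 5 (0.833 per 10 kb in both), and the 50 kb after that 47 and 53. Peaks thus thinned out at the end of RET and returned beyond, though the limits of these stretches were chosen after the values were seen. In RefSeq's order RET is followed by CSGALNACT2-DT, CSGALNACT2 and RASGEF1A; the files do not say which of them the peaks fall in. Within the sparse stretch lay the deepest summits of the locus, a shared pair 62 kb past the start end (Spindlin1 43633574 to 43634225 with 29 fragments, C11orf84 43633519 to 43634214 with 30). Its background was 2.75 and 2.45 times the floor and its folds 8.32 and 8.74.

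**Figure D3:**
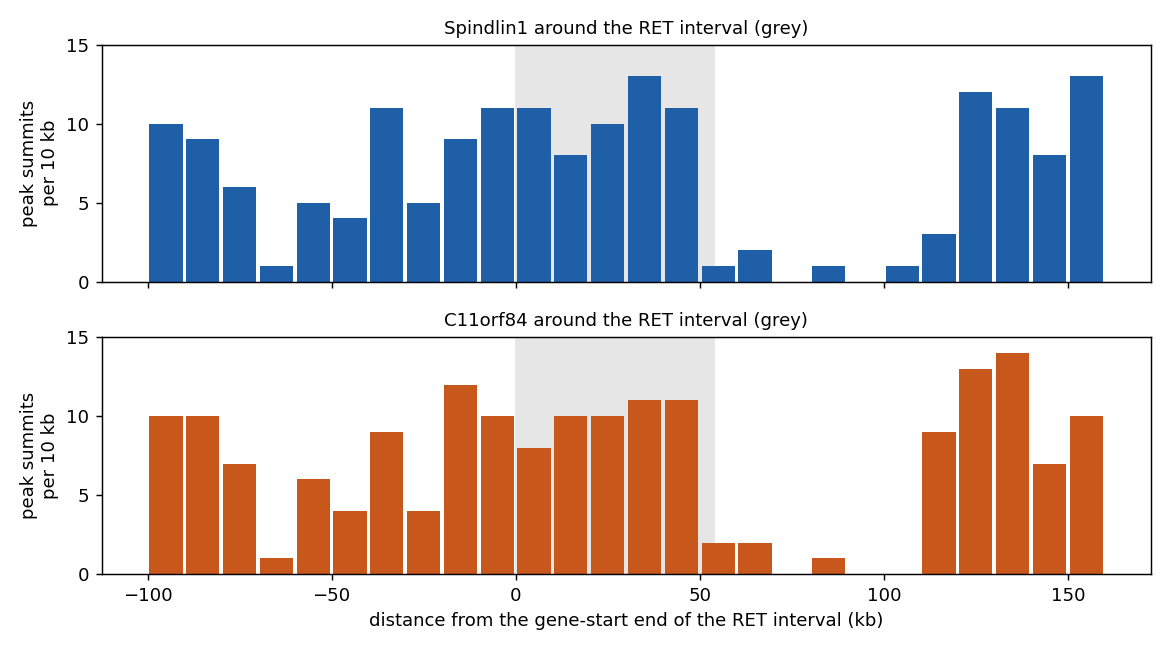
Number of peak summits per 10 kb (vertical axis) of Spindlin1 (upper) and C11orf84 (lower) against distance from the gene-start end of the RET interval in kb; grey marks the interval. The stretch from 50 to 110 kb holds 5 summits in each list, between the 53 and 50 of the first 50 kb of the gene and the 47 and 53 of the last 50 kb shown. The limits of these stretches were chosen after the values were seen.

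Depths of overlapping summits were compared pair by pair, taking for each Spindlin1 peak the overlapping C11orf84 peak of nearest summit. At RET the C11orf84 summit was deeper in 58 of 92 pairs (63.0%, 52.3 to 72.9) and the Spindlin1 summit in 23 (25%, 16.6 to 35.1), with 11 equal. Over all 106909 pairs of the lists these shares were 57.2% and 31.1%, which lie within the wide RET intervals. The 92 pairs at RET hold 82 distinct C11orf84 peaks, so they are not independent. Whether RET differs from the lists in this was not tested. The floor of the C11orf84 list was 1.09 times that of Spindlin1, so depths of the 2 libraries are not on one scale. At GDNF, C11orf84 was deeper in 4 and Spindlin1 in 3 of 9 pairs, and at MAZ in 1 and 3 of 5. Median summit distances were 69 bp at RET, 34 bp at GDNF and 148 bp at MAZ, against 58 bp over the lists.

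**Figure D4:**
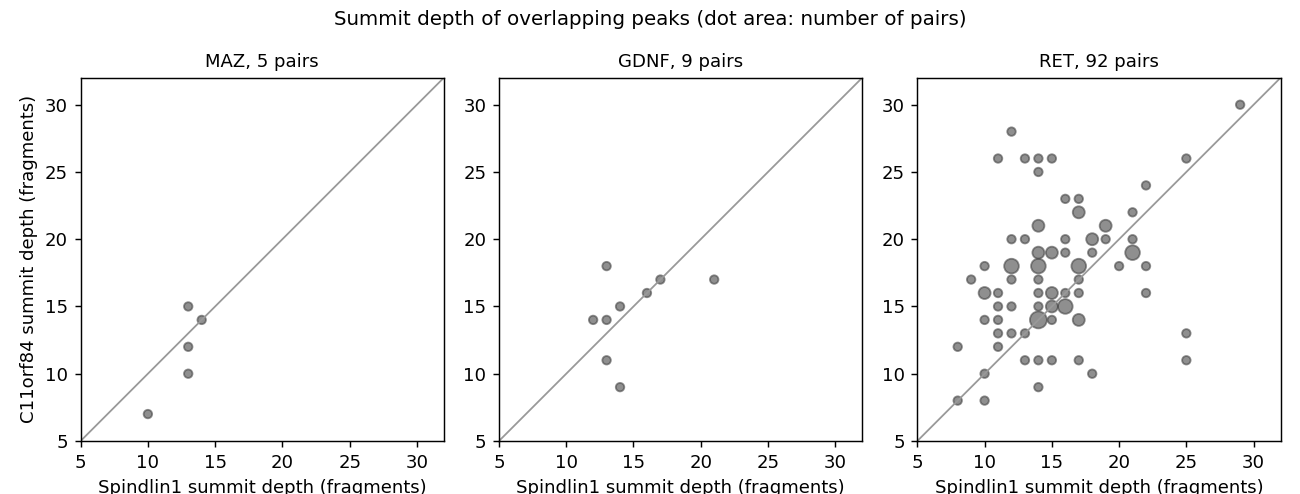
Summit depth in fragments of C11orf84 (vertical axis) against Spindlin1 (horizontal axis) for overlapping peaks at MAZ (5 pairs), GDNF (9) and RET (92); dot area gives the number of pairs and the line marks equal depth. At RET 58 pairs lie above the line and 23 below; a wide C11orf84 peak enters with several Spindlin1 peaks.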

How the data were processed

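Per the submitters' processing notes, Bowtie 1.2.2 aligned the reads to hg19. For the peak caller, control and threshold nothing is given in the sources used here. Each deposited list gives, per peak, a fold ratio of the summit over local background, a −log10 p-value and −log10 q-value, and a score that was not used; all were made by the authors. Positions are printed counting from 1. Summit depth k and background λ were recovered by solving fold = (k + 1)/(λ + 1) together with a Poisson upper tail beyond k, which met the deposited −log10 p of 100% of peaks with a largest error of 0.000174; the formula is inferred from the values. The lowest background (the floor) stood at 0.949 (Spindlin1) and 1.04 (C11orf84) fragments. The recovery and overlap steps were tested on simulated data. Named peaks were the 3 of highest fold per list and locus, those in the interval within 2 kb of its start end, and the nearest to that end; others were named after their values were seen. Genes, rules and alternatives (flanks of 10 and 100 kb, summit in the window, −log10 q of at least 10, 50% overlap, summits within 200 bp, windows shifted by 50%) were chosen with earlier results of these data known. The planned list of other GDNF family genes was not analysed here, since no hg19 annotation was used. Promoter sequences and gene order came from RefSeq (GRCh38.p14), where all 3 genes matched by symbol. Software was Python 3.11.15 with pandas 2.3.3, NumPy 2.4.6, matplotlib 3.10.9 and SciPy 1.17.1.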

Additional observations from a re-analysis of the deposited data

How the results depend on the processing

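Of 86 recomputed values, 63 stayed within 1.5 times (counts) or within the 95% interval (shares and medians). A −log10 q of at least 10 left 0 and 0 peaks at MAZ (Spindlin1, then C11orf84), 2 and 4 at GDNF and 36 and 53 at RET. With it in both lists the shared part was 100% and 25% at GDNF and 80.6% and 49.1% at RET. Over the lists it was 49.0% and 30.9%. The windows with as many such summits were 34.2% and 25.3% at GDNF and 0.877% and 0.716% at RET. These are shares of 7505 windows at the GDNF length and 6841 at the RET length, in place of 16737 and 14576. They cannot be set against the window shares given earlier. MAZ gave no value. Flanks of 100 kb held 25 and 29 peaks at MAZ and 170 and 176 at RET, and flanks of 10 kb held 9 C11orf84 peaks at MAZ. At RET the shared part fell to 75.3% and 77.7% with 50% of both intervals in common, and to 67.0% and 69.1% with summits within 200 bp; it was above the list-wide share under the same rule each time. The counts at MAZ and GDNF are small, so their shares carry wide intervals. Total read numbers are unknown, and peaks of 7 or 8 fragments are near the lowest depths called. No paired analysis was possible because each antibody has 1 library and the labels carry no replicate number.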

Other observations

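Surroundings beyond 50 kb differed among the genes. Between 50 and 100 kb from the GDNF interval there were 1 Spindlin1 and 2 C11orf84 peaks, of 11 to 12 fragments, and 0 of them were shared. Around MAZ the same distance held 13 and 13 peaks, of which 6 and 7 were shared, with at most 12 and 13 fragments. Around RET it held 73 and 82, of which 69 and 71 were shared, with at most 25 and 24 fragments. GDNF thus lay in the stretch with the fewest peaks around it, and its 6 kb start region held 7 of the 13 Spindlin1 and 6 of the 15 C11orf84 peaks found within 100 kb of the gene. The limit of this region was chosen after the values were seen.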
